A study of Mus musculus with 4 samples.

Results

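Genomic imprinting silences either the maternal or the paternal copy of a gene through DNA methylation set in the germ line, so that a single parental copy is read. Many imprinted genes act on growth: paternally expressed genes tend to promote it and maternally expressed genes tend to restrain it, and several are expressed in embryonic mesenchyme and in preadipocytes, where they fall as tissues mature. The genes described here were 10 well-known members of this class, chosen by name: H19 and Grb10 (read from the maternal copy in most tissues), Meg3 (maternal), Peg3, Peg10, Plagl1, Mest, Ndn and Sgce (paternal), and Gnas, whose parental copy depends on promoter and tissue. Of the 10, 9 were analysed here, with 21 transcript rows out of 24746 transcripts and 16709 gene symbols in all. Meg3, a maternally expressed long noncoding RNA, was not analysed here, because no row under its symbol was used.

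The values came from RNA sequencing of 3T3-L1 preadipocytes, an established mouse fibroblast-like line that can be turned into adipocytes. One group received 25 µM Nutlin-3a for 24 h and the other an equivalent amount of its solvent DMSO. Both groups were made of 2 biological replicates, so 4 libraries were sequenced. Nutlin-3a blocks the p53-binding pocket of MDM2, which releases p53, and the comparison asks which transcripts differ after that release. The authors' table gives an FPKM value (a fragment count divided by transcript length and by the number of mapped fragments) for each transcript in each group, without values of single libraries. No difference below could therefore be set against the spread between replicates, no test was possible, and "higher" and "lower" describe the listed group values. The depth behind each value is unknown. The table does not separate parental copies, and in RNA from whole cultures fewer cells expressing a gene and less RNA per cell cannot be told apart.

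A gene entered the comparison when its mean over the groups reached 1 FPKM and neither group was at 0, which 10331 genes met. Ratios are log2 of Nutlin-3a over DMSO on FPKM + 1, and a difference of 2-fold or more on that scale was the limit for calling a gene higher or lower. Of the 16 p53 targets listed as a check of the treatment, 15 were compared and 14 were past the limit on the higher side, with a median log2 ratio of 2.16. The cells carried the marks of the labelled type: the preadipocyte gene Dlk1 had 623 FPKM with Nutlin-3a and 513 with DMSO, and the fibroblast gene Vim had 1181 and 3169 FPKM. All 5 markers of mature adipocytes stayed under a mean of 1 FPKM and summed to 1.90 FPKM with Nutlin-3a and 0.201 with DMSO. Of 9 preadipocyte and fibroblast markers compared, 6 were at least 2-fold lower in Nutlin-3a, and the list of 10 summed to 2340 FPKM against 5323 FPKM. Of the 9, 8 had a log2 ratio below 0, and Dlk1 alone was above it, at 0.28. Cd34, the marker not compared, had 0.0187 FPKM with Nutlin-3a and 0.186 with DMSO. Markers of macrophages, muscle, endothelium and epithelium reached at most 6.52 FPKM with Nutlin-3a (Cd68) and 4.90 with DMSO (Des), and the pan-leukocyte marker Ptprc had 0.0618 FPKM and 0. The part of these shifts in the values of the imprinted genes was not tested.

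Stretches just before the start sites of 4 of these genes are shown because these genes span the range of levels found here. CpG dinucleotides are marked because imprints are carried by methylated CpG. Methylation was not measured, and whether any stretch shown carries an imprint was not tested. Each run gives the 250 bases before a RefSeq start site (GRCm38.p6), 5′ to 3′ on the gene's own strand, and capitals mark the CpG dinucleotides. Gnas (plus strand, chr2:174329756-174330005) and Ndn (plus strand, chr7:62348027-62348276) were well above 1 FPKM in both groups. Grb10 (minus strand, chr11:12037421-12037670) and Peg3 (minus strand, chr7:6730420-6730669) were listed at or near 0. Where a gene had several start sites, the stretch with the most CpG is given.
Gnas: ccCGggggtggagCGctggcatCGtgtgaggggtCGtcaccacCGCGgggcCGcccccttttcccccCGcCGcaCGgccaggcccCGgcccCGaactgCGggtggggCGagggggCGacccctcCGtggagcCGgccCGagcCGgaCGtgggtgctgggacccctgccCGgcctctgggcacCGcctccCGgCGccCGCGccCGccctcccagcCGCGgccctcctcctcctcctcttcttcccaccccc
Ndn: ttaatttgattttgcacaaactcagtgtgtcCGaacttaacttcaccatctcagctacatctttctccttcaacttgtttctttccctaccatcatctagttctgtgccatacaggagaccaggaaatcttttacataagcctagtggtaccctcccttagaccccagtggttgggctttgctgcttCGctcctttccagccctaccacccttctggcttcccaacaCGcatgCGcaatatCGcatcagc
Grb10: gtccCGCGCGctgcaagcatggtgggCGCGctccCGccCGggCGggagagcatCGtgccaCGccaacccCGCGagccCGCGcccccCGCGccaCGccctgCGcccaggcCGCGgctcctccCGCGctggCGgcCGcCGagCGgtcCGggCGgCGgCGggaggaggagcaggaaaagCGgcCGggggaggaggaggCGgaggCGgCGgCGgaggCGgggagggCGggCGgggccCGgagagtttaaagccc
Peg3: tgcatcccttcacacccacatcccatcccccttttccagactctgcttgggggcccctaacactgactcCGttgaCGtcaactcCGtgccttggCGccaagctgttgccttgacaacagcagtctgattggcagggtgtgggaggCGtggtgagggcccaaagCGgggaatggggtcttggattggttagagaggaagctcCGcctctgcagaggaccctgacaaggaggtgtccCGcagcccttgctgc
The Grb10 stretch held 40 CpG and the Gnas stretch 29, against 8 for Peg3 and 5 for Ndn. Grb10 had another stretch with 8 CpG and Gnas had others with 14, 21 and 22, while Peg3 and Ndn had no other. Which start site these cells use was not tested. In the 4 stretches shown, CpG density did not follow the order of the FPKM levels. The densest of the 4 belonged to a gene listed at 0 in DMSO and the sparsest to a gene at 28.5 FPKM in DMSO. Over 32817 such stretches of all genes the median was 6 CpG, with quartiles of 2 and 16. The reference held 14 stretches for 7 of the 10 genes, with between 0 and 40 CpG. None of the 14 held the p53 half-site, which 7.12% of all stretches held. None held AANATGGCG, a core of the YY1 motif, searched on both strands and present in 1.12% of all stretches. With 14 stretches, some of them overlapping, neither count of 0 is a sign of fewer sites than in other genes. Sequence outside these stretches was not searched.

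The 9 genes fell into 2 sets by level, and none of those that could be compared was past the 2-fold limit. Gnas, Ndn and Sgce lay between 20.02 and 554 FPKM in each group. Peg10, H19, Plagl1, Grb10, Mest and Peg3 had means under 1 FPKM. Of all symbols, 37.9% had a mean under 1 FPKM, against 6 of these 9. Of the 3 genes compared, 0 were past 2-fold, where 12.8% of all genes compared were (6.62% higher and 6.14% lower). With 3 genes, this count gives no sign of a difference from the background.

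**Figure D1:**
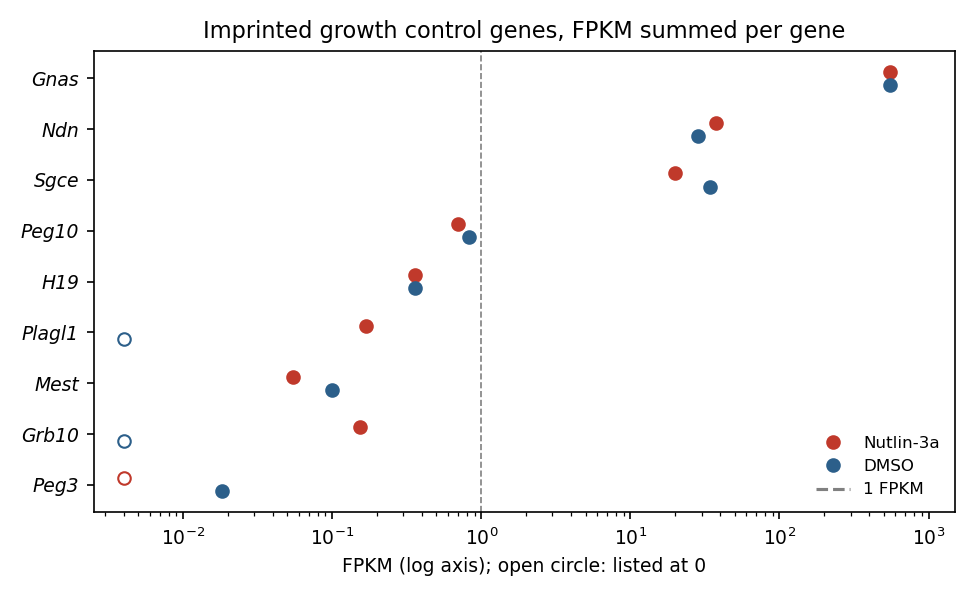
FPKM summed per gene in Nutlin-3a (red) and DMSO (blue) for the 9 genes analysed, ordered by mean, on a log axis; open circles are values listed at 0, drawn at the left edge. Gnas, Ndn and Sgce lie right of the dashed line at 1 FPKM and the other 6 genes left of it.

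Gnas encodes the stimulatory G protein alpha subunit, which couples hormone receptors to adenylyl cyclase, and its locus also makes the XLas and Nesp55 proteins from their own promoters. It is known to affect growth and adipose tissue. Gnas had 554 FPKM with Nutlin-3a and 550 with DMSO, rank 223 and rank 220 of 16709 symbols. The sum was alike in both groups, with a log2 ratio of 0.010 that was -0.024 after quantile normalization and 0.26 after upper-quartile scaling. That scaling also moved the median of all genes compared from 0.07 to 0.29, so Gnas stayed close to the median under it. The gene model was listed on chromosome 2 from 174281237 to 174346742 (mm10), the same span as Nespas, an antisense RNA of the locus.

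The 6 transcript rows of Gnas did not all follow the sum. The most abundant row had 503 FPKM with Nutlin-3a and 525 with DMSO, which was 90.7% and 95.4% of the gene's sum. The next row had 42.6 FPKM with Nutlin-3a and 25.3 with DMSO, 1.68-fold higher. Another row had 9.01 FPKM in Nutlin-3a and was listed at 0 in DMSO, so no fold is given. The other 3 rows were under 0.1 FPKM in both groups. The rows below the leading one thus held a larger part of the sum in Nutlin-3a than in DMSO. Which promoter or protein form each row stands for was not settled, because the accession column of the table did not match the symbols.

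Ndn encodes necdin, a MAGE family protein that restrains growth, binds E2F1 and p53, and is known to hold back adipocyte differentiation. It had 37.4 FPKM with Nutlin-3a and 28.5 with DMSO, from a single transcript row. Its value was 1.31-fold higher in Nutlin-3a, a log2 ratio of 0.38 that lay within the limit. Upper-quartile scaling gave 0.62 and the GC correction 0.15. Ndn ranked 1992 in Nutlin-3a and 2517 in DMSO. It lies on chromosome 7 from 62348277 to 62349927 (mm10).

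Sgce encodes epsilon-sarcoglycan, a membrane protein of the dystrophin-associated complex that is expressed in many tissues. It had 20.02 FPKM with Nutlin-3a and 34.1 with DMSO. Among the 3 genes compared it had the largest difference, 1.70-fold lower in Nutlin-3a with a log2 ratio of -0.74. It was the only one of the 3 past a limit of 1.5-fold, which 33% of all genes compared passed. After a correction for GC content its log2 ratio was -0.97, close to the 2-fold limit. Upper-quartile scaling instead gave Sgce -0.50, within the limit of 1.5-fold, and put Ndn past that limit at 0.62. Of its 4 transcript rows, 1 held 96.8% of the sum in Nutlin-3a and 97.6% in DMSO, with 19.4 and 33.3 FPKM. The other 3 rows were under 0.6 FPKM in both groups. Sgce lies on chromosome 6 from 4674350 to 4747204 (mm10).

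Over all 21 transcript rows of these genes, 4 could be compared, and 0 of the 4 were past 2-fold, against 17% of all transcripts compared. The Gnas row with 9.01 FPKM in Nutlin-3a reached the minimum with a mean of 4.50 FPKM. It was left out of that count only because of its 0 in DMSO. On FPKM + 1 its log2 ratio was 3.32, past the limit. In DMSO 8 of the 21 rows were listed at 0 and in Nutlin-3a 1 was. Over the whole table the share of transcripts at 0 was 15.6% with DMSO and 4.91% with Nutlin-3a. Such a 0 may also come from an estimate that failed.

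**Figure D2:**
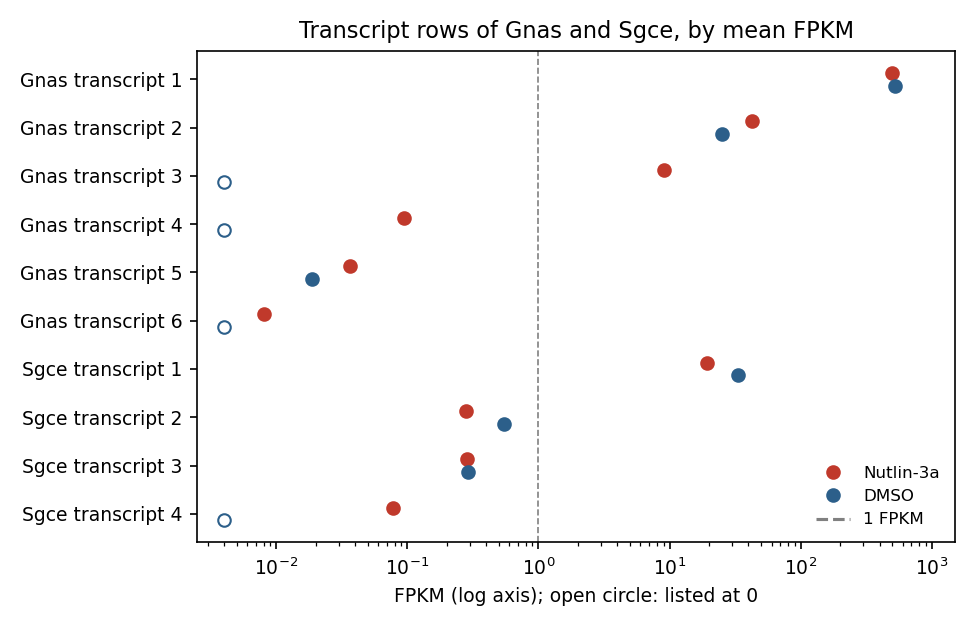
FPKM of each transcript row of Gnas and Sgce in Nutlin-3a (red) and DMSO (blue) on a log axis, numbered by mean FPKM within the gene; open circles are values listed at 0. The leading row of each gene carries at least 90.7% of its sum, and Gnas row 3 has 9.01 FPKM with Nutlin-3a and 0 with DMSO.

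Peg10 encodes a protein derived from a retrotransposon, essential for the placenta, and is read from the same paternal chromosome and the opposite strand as Sgce. In RefSeq the genes stand head to head, with 102 bases from the end of the Sgce model to the start of Peg10. Peg10 had 0.698 FPKM with Nutlin-3a and 0.822 with DMSO. Sgce was 28.7 times the level of its divergent neighbour in Nutlin-3a and 41.5 times in DMSO, on the FPKM scale, which is per length. Both genes had the lower value in Nutlin-3a, by 1.18-fold for Peg10, a gene under the minimum mean. Peg10 lies on chromosome 6 from 4747306 to 4760516 (mm10).

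The other genes under 1 FPKM were near the limit of what the table can show. H19, a maternally expressed noncoding RNA abundant in the embryo that restrains growth, had 0.358 FPKM in both groups. Its 2 rows leaned opposite ways, 0.282 against 0.232 FPKM and 0.0755 against 0.126 FPKM in Nutlin-3a and DMSO. Mest, a paternally expressed gene of the alpha/beta hydrolase fold that goes up with adipose tissue expansion, had 0.0541 FPKM with Nutlin-3a and 0.0990 with DMSO. The span listed for Mest also covers Copg2, its overlapping neighbour, from 30733506 to 30896794 on chromosome 6 (mm10). H19 lies on chromosome 7 from 142575530 to 142578146 (mm10).

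Plagl1, Grb10 and Peg3 were each listed at 0 in 1 group. Plagl1, a zinc finger factor also called Zac1 that can stop the cell cycle and acts as a p53 cofactor, had 0.168 FPKM with Nutlin-3a and 0 with DMSO. Grb10, an adaptor that binds the insulin and IGF1 receptors and dampens their signal, had 0.153 FPKM with Nutlin-3a and 0 with DMSO. Nearly all of the Grb10 value, 99.8%, came from 1 of its 3 rows. Peg3, a zinc finger protein linked to p53-dependent cell death, had 0 with Nutlin-3a and 0.0183 FPKM with DMSO. Plagl1 and Peg3, both tied to p53, thus had no value above 0.2 FPKM in either group. These 3 genes are listed on chromosome 10 from 13090788 to 13131695, on chromosome 11 from 11930499 to 12037420 and on chromosome 7 from 6705960 to 6730419 (mm10).

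Among the 6 genes under 1 FPKM, 2 had the higher value in Nutlin-3a and 4 in DMSO. Over all 6329 symbols under that mean, 72.1% had the higher value in Nutlin-3a. Listed at 0 in DMSO were 2 of the 6, against 36.4% of all such symbols, and 1 of the 6 was at 0 in Nutlin-3a, against 7.27%. No direction is read from these values.

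**Figure D3:**
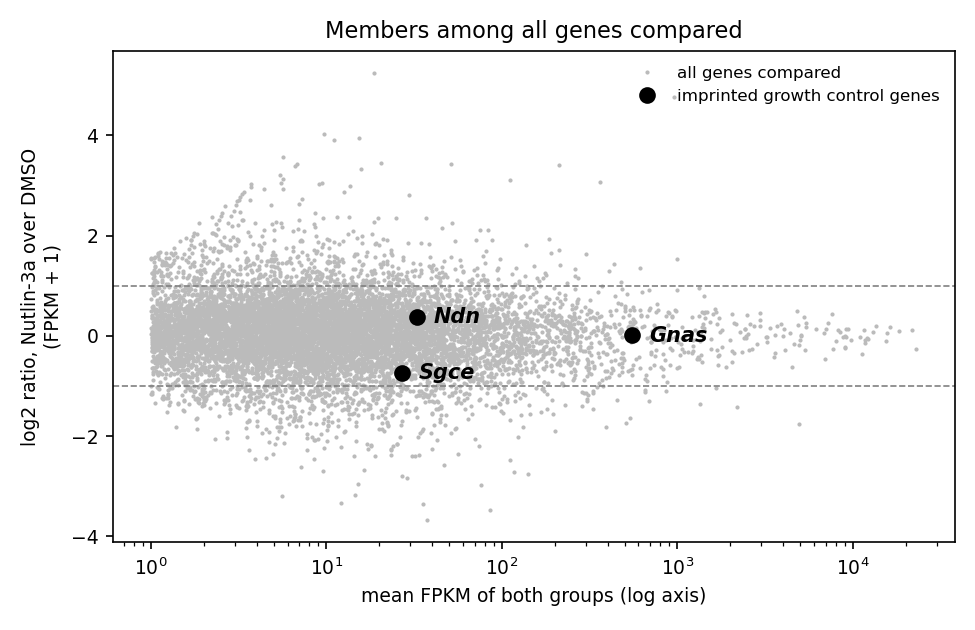
Nutlin-3a over DMSO log2 ratio on FPKM + 1 against mean FPKM (log axis) for the 10331 genes compared (grey), with Gnas, Ndn and Sgce in black and dashed lines at 2-fold. All 3 lie between the lines, at 0.010, 0.38 and -0.74.

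Neighbours in the same imprinted domains were taken from a list of other imprinted genes, many of which are imprinted only in certain tissues. Of 32 neighbours listed, 14 were compared, 0 of them were past 2-fold, and their log2 ratios ran from -0.41 to 0.93. That count depends on the 1 FPKM added. On FPKM alone, Mkrn3 and Slc22a18 were 3.12-fold and 2.74-fold higher in Nutlin-3a, and the lowest, Dhcr7, was 1.45-fold lower. With 12.8% of all genes compared past the limit, a count of 0 among 14 is no sign that these domains were more stable than other genes. Genes under and over 1 FPKM stood side by side in most domains. In the domain of Sgce and Peg10, Casd1, a sialic acid acetyltransferase gene, had 6.43 FPKM with Nutlin-3a and 8.29 with DMSO, and Pon2, a paraoxonase gene, had 14.9 and 9.40 FPKM. Sgce thus had the highest level in its domain in both groups. Asb4, Calcr and Ppp1r9a were under 0.1 FPKM in both groups. Pon3, another paraoxonase gene, had 1.39 FPKM with Nutlin-3a and 0.0803 with DMSO, a mean under the minimum.

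The Ndn domain corresponds to the human Prader-Willi region, and 4 of its other genes could be compared. Snurf, which shares its transcript with the splicing protein gene Snrpn, had 13.1 FPKM with Nutlin-3a and 9.08 with DMSO. Snrpn itself was listed at 0 in Nutlin-3a and near 0 in DMSO, and reads of the shared transcript cannot be told apart. Mkrn3, a makorin ubiquitin ligase gene, had 2.30 against 0.739 FPKM, a log2 ratio of 0.93 within the limit. Peg12 had 3.05 against 3.45 FPKM and the ubiquitin ligase gene Ube3a had 4.23 against 3.23 FPKM. Of the 4 neighbours compared with Ndn, 3 had the higher value in Nutlin-3a, as Ndn did, without any past the limit. The median log2 ratio of all genes compared was also on that side, at 0.07, and no shared direction is read from 4 genes.

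In the domain of Meg3, Dlk1, a paternally expressed transmembrane protein that inhibits adipogenesis, had 623 FPKM with Nutlin-3a and 513 with DMSO. Of the maternally expressed noncoding RNAs of that domain, Meg3 was given no value. Rian had 0.0645 and 0.0466 FPKM, and Mirg had 0.118 and 0.332 FPKM. Dio3, a further gene of the domain, had 0.0747 FPKM with Nutlin-3a and 0 with DMSO. Next to H19, Igf2, a paternally expressed growth factor, had 2.68 FPKM with Nutlin-3a and 2.34 with DMSO. In the adjoining Kcnq1 domain the growth-restraining genes Cdkn1c and Phlda2 were listed at 0 in DMSO, with 0.0344 and 0.312 FPKM in Nutlin-3a. Cd81, a tetraspanin gene there, had 261 FPKM with Nutlin-3a and 153 with DMSO. Slc22a18, Osbpl5, Ascl2, Kcnq1 and Kcnq1ot1 also had the higher value in Nutlin-3a. Lower in Nutlin-3a were Tssc4 (65.6 against 72.3 FPKM), Dhcr7 (2.68 against 3.89 FPKM) and Tspan32 (0.0320 against 0.591 FPKM). Copg2 had 10.8 FPKM with Nutlin-3a and 10.5 with DMSO, far above Mest, with which it shares its listed span. Around Grb10, Ddc and Cobl were under 0.2 FPKM in both groups, and Usp29, beside Peg3, was under 0.01 FPKM.

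**Figure D4:**
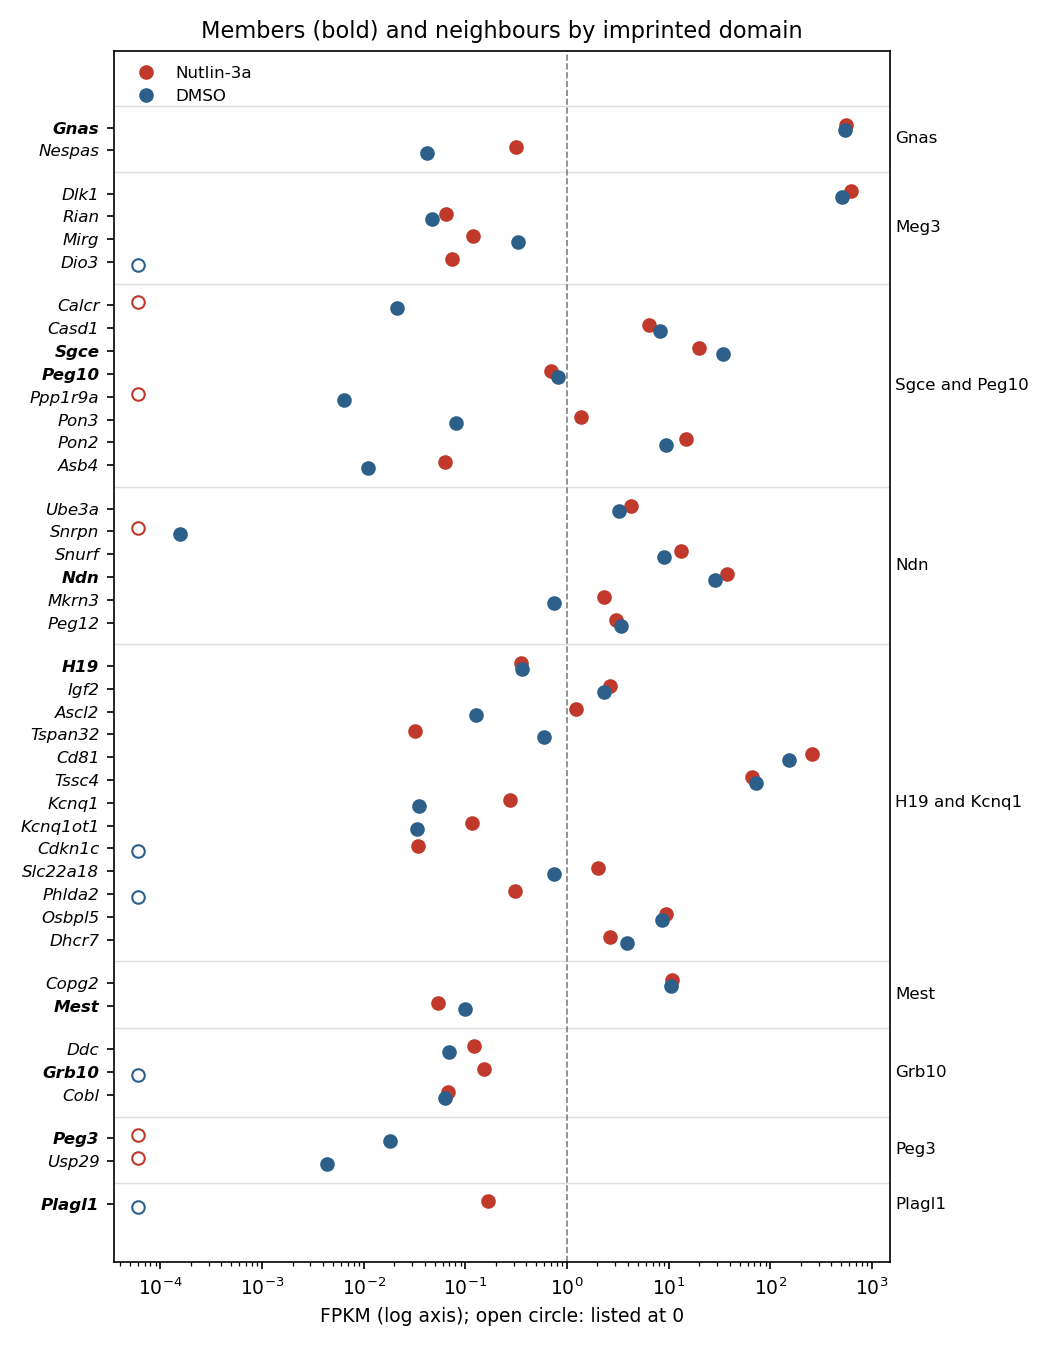
FPKM in Nutlin-3a (red) and DMSO (blue) of the members (bold) and their listed neighbours, grouped by imprinted domain, named at the right, on a log axis; open circles are values listed at 0 and the dashed line is 1 FPKM. Gnas, Dlk1, Sgce, Ndn and Cd81 stand at the right in their domains, and no gene of the Grb10, Peg3 or Plagl1 domains passes 1 FPKM; Meg3 itself has no point.

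A further list held other imprinted genes. Of 60 other imprinted genes on the list, 51 had a row and 26 were compared. Past the limit were 0 higher and 1 lower, and the median log2 ratio was 0.13, beside 0.07 over all genes compared. Of all genes compared 12.8% were past the limit, and with 26 genes nothing particular to the list is read from its count. The 1 lower gene was Ampd3, an AMP deaminase gene, with 0.320 FPKM with Nutlin-3a and 2.10 with DMSO. That call was absent with a pseudocount of 5 FPKM or a mean of at least 5 FPKM. All 19 genes on a list for imprint maintenance had a row. That list also held Dnmt3a, Dnmt3l and the Tet genes, so it is broader than factors that keep imprints. Of 14 compared, 1 was lower and 0 were higher, with a median of -0.12. That count is too small to set apart from the same 12.8%. The lower one was Uhrf1, which brings the maintenance methyltransferase Dnmt1 to replicated DNA, with 7.51 FPKM with Nutlin-3a and 18.5 with DMSO. Zfp57, a zinc finger protein that guards imprints in the embryo, had 14.4 against 28.2 FPKM and lay within the limit, and Dnmt1 had 7.85 against 9.64 FPKM.

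Genes of the pathways in which Grb10 and Gnas act gave counts past the limit near the 12.8% of all genes compared, so the counts are no result about these lists. Of 20 insulin and IGF1 receptor signalling genes compared, 2 were higher and 0 lower, with a median of 0.12. Grb2, an adaptor of the Ras pathway, had 47.1 FPKM with Nutlin-3a and 20.1 with DMSO, 2.34-fold higher. Foxo3, a forkhead factor restrained by insulin signalling, had 3.13 against 0.314 FPKM. The receptor genes Insr (2.30 against 2.62 FPKM) and Igf1r (1.93 against 1.72 FPKM) lay within it. Grb14, the other receptor-binding relative of Grb10 with signal in both groups, had 1.90 FPKM with Nutlin-3a and 2.58 with DMSO. Grb7, a further relative, had 2.50 FPKM with Nutlin-3a and was at 0 with DMSO. With a mean of 1.25 FPKM it reached the minimum, but because of that 0 it was not among the 20 compared. On FPKM + 1 its log2 ratio was 1.81, past the limit.

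Of 20 genes of Gs and cyclic AMP signalling compared, 1 was higher and 1 lower, with a median of 0.27. Gna11, a Gq family alpha subunit gene, had 18.6 FPKM with Nutlin-3a and 8.71 with DMSO, just past the limit with a log2 ratio of 1.01. Akap12, an anchor protein of protein kinase A, had 1.86 against 5.10 FPKM. The partner subunit gene Gnb1 had 93.1 FPKM with Nutlin-3a and 61.0 with DMSO, and the kinase subunit gene Prkar1a had 80.7 and 54.0 FPKM. Gnas was above every other alpha subunit gene on the list, of which Gnai2 was the next with 161 and 134 FPKM.

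**Figure D5:**
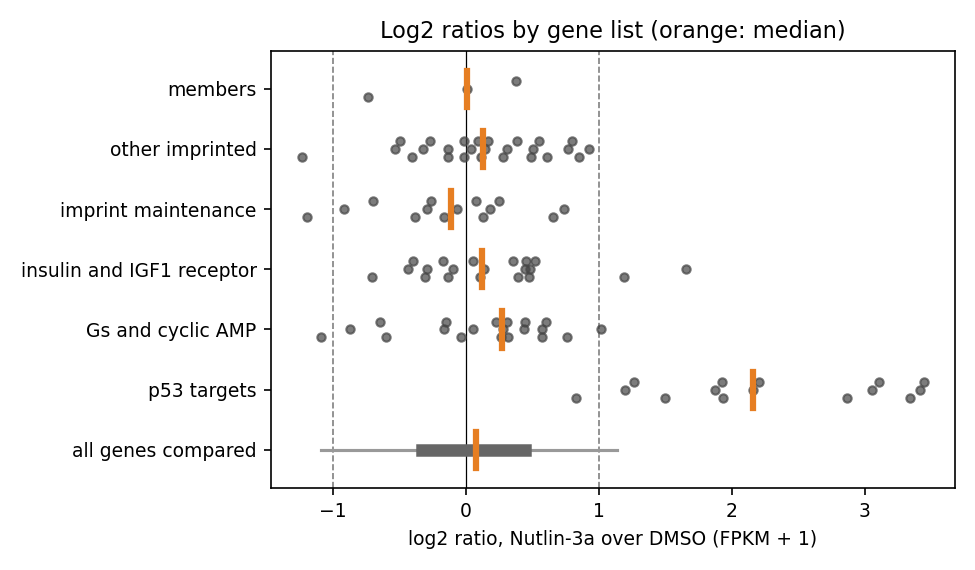
Log2 ratios of Nutlin-3a over DMSO (FPKM + 1), 1 point per gene compared, for each gene list, with the list's median in orange and dashed lines at 2-fold. The bottom bar gives the quartiles of all genes compared (-0.33 and 0.44) and the thin line its 5th and 95th percentiles (-1.09 and 1.14); the 15 p53 targets stand to the right at a median of 2.16, and the imprinted genes lie around 0.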

How the data were processed

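RNA of 2 replicates each of Nutlin-3a and DMSO cultures was sequenced. Reads were handled with TopHat2 2.0.11 and the build mm10, per the submitters' processing notes; for the quantifier and the combining of replicates, nothing is given in the sources used here. Per the file headers, the authors deposited 1 FPKM value per transcript and group, and a further pair of columns that hold log2 of those deposited FPKM values, which were not used. The prefixes NUT and DSM were read as Nutlin-3a and DMSO. Starts in the table begin at 0 and are printed here as 1-based positions. Rows were assigned by gene symbol. The accession column was not used: 1545 of 22939 accessions found in RefSeq matched the symbol, and read by accession 2 of 8 p53 targets were at least 2-fold higher, against 14 of 15 by symbol.

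FPKM was summed per symbol, 1 FPKM was added and the log2 ratio taken with Python 3.11.15 and pandas 2.3.3. The calls were tested on simulated data. How they hold against the spread between replicates of these libraries was not tested, because the table has no values of single libraries. The GC correction used GENCODE M21 transcripts in 20 classes of equal size. The genes and lists were chosen with earlier results of these data known. The rule named all members, their listed neighbours and up to 4 genes per list past the limit; other genes were named after their values were seen. Planned fits over libraries were not run, since they need a value per library. The depth per library is unknown, so no interval is given.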

Additional observations from a re-analysis of the deposited data

How the results depend on the processing

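No paired analysis was possible because the table holds 1 value per group, and leaving out a replicate was not run for the same reason. The count of imprinted growth control genes past 2-fold was 0 under each alternative at that limit, and 1 with a limit of 1.5-fold; their transcript rows gave 2 with that limit. The median log2 ratio of the genes compared, 0.010, was -0.031 with no minimum mean, 0.26 after upper-quartile scaling, -0.024 after quantile normalization, -0.061 when centred on the median, 0.15 after the GC correction and -0.063 with only the most abundant transcript of each gene. An alternative chosen after seeing the data, rows read by the accession column, gave 0.27. The rows it compared stand under other symbols, so that value does not describe the imprinted genes as listed by symbol. The count of other imprinted genes past the limit, 1, was 3 with a pseudocount of 0.1 FPKM and 3 with 0.5 FPKM, 0 with 5 FPKM, 2 with no minimum mean, 0 with a mean of at least 5 FPKM, 4 after upper-quartile scaling, 2 with only the most abundant transcript and 6 with a limit of 1.5-fold. Their median, 0.13, was 0.33 after upper-quartile scaling, which moved all genes. Beyond these scalings and settings the cause was not tested. For transcript rows the GC correction and the choice of 1 transcript per gene were not run. Values under 1 FPKM cannot be weighed without the depth.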

Other observations

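A list of relatives of these genes was described as well. Of 21 on the list, 16 had a row and 12 were compared, with 1 at least 2-fold higher and 2 at least 2-fold lower in Nutlin-3a, beside 6.62% higher and 6.14% lower over all genes compared. Grb7, also on this list, was left out of the count because it was at 0 in DMSO. From 12 genes nothing particular to the list is read. Maged2, which like Ndn encodes a MAGE family protein, had 111 FPKM in Nutlin-3a and 272 in DMSO, 2.46-fold lower, and Maged1 had 166 against 246 FPKM, within the limit. Ephx1, the microsomal epoxide hydrolase gene, had 117 FPKM in Nutlin-3a and 38.0 in DMSO, while Ephx2, the soluble form, had 3.19 against 15.3 FPKM. The sarcoglycan gene Sgcd had 6.90 against 7.97 FPKM and Sgcb had 1.31 against 1.46 FPKM, both under the level of Sgce. Plagl2, a relative of Plagl1, had 4.98 FPKM in Nutlin-3a and 5.003 in DMSO, and Plag1 was under 0.1 FPKM in both groups.

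In the accession column, 2 rows that stand under the symbol Dlk1 carry accessions that RefSeq gives to Meg3. They were listed at 30.1 against 17.4 FPKM and at 15.7 against 10.3 FPKM in Nutlin-3a and DMSO. Since that column did not match the symbols elsewhere, these values were kept with Dlk1 and none was given to Meg3. The rows under Dlk1 are listed on chromosome 12 between 109452823 and 109463336 (mm10). That span ends before the RefSeq start of Meg3 at 109540996, so the listed positions place these rows at Dlk1.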
